A study of Mus musculus with 12 samples.

Results

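The Ifi200 family, also called the PYHIN family, is a cluster of interferon-inducible genes on mouse chromosome 1, and 7 of its members were followed here through LPS treatment of peritoneal macrophages. The members were the rows of the deposited gene table whose symbol was Ifi203, Ifi204, Ifi205, Ifi207, Ifi209, Ifi211 or Ifi213, so 7 of 53465 genes. An eighth listed symbol, Mnda, is a synonym of Ifi211 in RefSeq and was not analysed under its own name. A further 7 genes of the same locus were measured and are given beside them.

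PYHIN proteins usually join a pyrin domain, through which they bind other pyrin-domain proteins, to a HIN domain, which binds DNA. Aim2, the best known of them, binds DNA in the cytosol, recruits the adaptor ASC (Pycard) and activates caspase-1 in an inflammasome, while Ifi204 is linked to the STING pathway that leads to interferon beta. In macrophages LPS, a bacterial cell-wall component, acts through TLR4 to raise interferon beta, which then acts through its receptor on interferon-stimulated response elements in promoters. Many genes of the family are known to respond to that signal.

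Peritoneal macrophages came from C57BL/6 mice at postnatal week 10, and 12 RNA libraries were made, 3 in each of 4 groups. The groups were Lyz2Cre-BHLHE40-Fl with LPS, Lyz2Cre-BHLHE40-Fl control, Lyz2Cre with LPS and Lyz2Cre control, so every group carries Lyz2Cre, a Cre recombinase placed at the lysozyme 2 locus that works in myeloid cells such as macrophages and neutrophils. The labels do not spell out the Fl allele, the LPS dose or its duration. They also do not say whether replicates were separate animals or cultures, so p-values measure the spread between these libraries, which may be technical.

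A value is a gene's read count divided by a factor of its library, as deposited, and the 12 libraries held 20489417 to 29354869 reads each. Bhlhe40, the gene that the Lyz2Cre-BHLHE40-Fl label names, had 1955.6, 2415 and 2326.7 in Lyz2Cre-BHLHE40-Fl libraries with LPS, against 2544.2, 2212.4 and 2644 in Lyz2Cre libraries with LPS. It had 8045.7, 7617 and 8015.5 in Lyz2Cre-BHLHE40-Fl controls, against 4886.1, 4737.1 and 5306.2 in Lyz2Cre controls. In the controls it was thus higher in the Lyz2Cre-BHLHE40-Fl libraries (log2 difference 0.67, limma adjusted p = 6.32e-06), and with LPS the difference was -0.15 (limma adjusted p = 0.201), where equal library totals turned the sign. Counts over a whole gene do not show whether a part of it was removed. Because the gene was not called lower in either treatment, the groups are called by their labels throughout.

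Markers of several cell types also differed between the 2 labels, a marker being counted as higher or lower at a limma adjusted p below 0.05. Of all 20419 genes tested, 19.8% were lower and 17.7% higher in Lyz2Cre-BHLHE40-Fl with LPS. In controls 16.6% were lower and 15% higher. All 10 mesothelium markers tested were higher in Lyz2Cre-BHLHE40-Fl in both treatments. Their summed value ranged from 1327.2 to 1678 in Lyz2Cre-BHLHE40-Fl with LPS, against 7.8 to 27.8 in Lyz2Cre with LPS, and from 1933.9 to 2616.6 in Lyz2Cre-BHLHE40-Fl controls, against 10.1 to 22.6 in Lyz2Cre controls. In Lyz2Cre libraries Upk3b and Nkain4 were at 0 in both treatments. Of 8 fibroblast and stroma markers, 7 were higher in Lyz2Cre-BHLHE40-Fl controls, where they summed to 9633.5 to 12190.9, against 2005.7 to 2166.5 in Lyz2Cre controls. At least 9 of 10 macrophage markers were above 0 in all libraries of each group, and 9 of 10 were lower in Lyz2Cre-BHLHE40-Fl in both treatments. They summed to 120097 to 123133 in Lyz2Cre-BHLHE40-Fl with LPS, against 198319 to 210497 in Lyz2Cre with LPS, and to 69190.9 to 78779.6 in Lyz2Cre-BHLHE40-Fl controls, against 140929 to 154894 in Lyz2Cre controls. Monocyte markers were lower for 6 of 7 and higher for 1 with LPS, and lower for 4 of 7 and higher for 1 in controls. They summed to 324.2 to 344.4 in Lyz2Cre-BHLHE40-Fl with LPS, against 4115.8 to 4458 in Lyz2Cre with LPS. In controls they summed to 366.3 to 437.6 in Lyz2Cre-BHLHE40-Fl, against 5492.6 to 6244.2 in Lyz2Cre. Neutrophil markers were lower for 4 of 5 tested and higher for 1 in both treatments, with Ly6g at 0 in all 4 groups. The 9 listed summed to 4234.3 to 4750.2 in Lyz2Cre-BHLHE40-Fl with LPS, against 17565.6 to 17769.3 in Lyz2Cre with LPS. In controls they summed to 1776.3 to 1872.1 in Lyz2Cre-BHLHE40-Fl, against 24683.5 to 28839.8 in Lyz2Cre. T and NK cell markers were lower for 7 of 9 and higher for 1 with LPS, and lower for 6 of 9 in controls. With LPS their sum went the other way, at 1020.7 to 1302.7 in Lyz2Cre-BHLHE40-Fl, against 403 to 455.7 in Lyz2Cre. In controls it was 36.2 to 56 in Lyz2Cre-BHLHE40-Fl, against 113.2 to 142.7 in Lyz2Cre. Markers of large peritoneal macrophages were 4 of 10 lower and 2 of 10 higher in both treatments, the number higher being near the share over all genes. They summed to between 637.6 and 788.4 in all libraries. The part of these differences in the results below was not tested, and in bulk RNA fewer cells of a type and less RNA per cell cannot be told apart.

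The locus, from Aim2 to Ifi205, lies at chr1:173350879-174031810 (mm10, GENCODE M21), a run of 680.9 kb. Cadm3, at chr1:173333258-173367695, overlaps its start. The nearest genes wholly outside it are Ackr1 before and Olfr433 after. Ifi213 (ENSMUSG00000073491) is at chr1:173566283-173599274 on the minus strand. Ifi209 (ENSMUSG00000043263), at chr1:173630917-173647928, is the member on the plus strand. Ifi207 (ENSMUSG00000073490), at chr1:173723427-173741747, and Ifi204 (ENSMUSG00000073489), at chr1:173747293-173766943, are neighbours on the minus strand. Also on the minus strand are Ifi211 (ENSMUSG00000026536) at chr1:173896345-173913046, Ifi203 (ENSMUSG00000039997) at chr1:173920407-173942672 and Ifi205 (ENSMUSG00000054203) at chr1:174011998-174031810. All 7 are protein coding.

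The genes are close copies of each other, which bears on how reads are shared out. Of the distinct runs of 50 bases in its transcripts, Ifi211 had 72.8% in another gene of the locus, most of all in Ifi205, with 44.7%. The share was 33.4% for Ifi209, 19.2% for Ifi204, 18.6% for Ifi205, 15.6% for Ifi213, 12.2% for Ifi203 and 5.39% for Ifi207. Values of Ifi211 and Ifi209 are therefore the least certain as those of single genes. Exons of the 7 members overlapped another annotated gene only between Ifi203 and Mndal, over 37 bases.

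RefSeq promoters (GRCm38.p6, 250 bases before the start and 50 after it) were given for 6 of the 7 members, all but Ifi204, and they are shown because most of them hold an element that answers to interferon. The element is the interferon-stimulated response element, searched on both strands as a pair of GAAA half-sites with 2 bases between them, and it stood in 5 of the 6 member promoters, against 3.44% of 32851 promoters of the same length. Its position was 35 bases before the start in Ifi203, 37 in Ifi211, 41 in Ifi207, 73 in Ifi213 and 134 in Ifi205. Ifi209 held the nearest match 79 bases before its start, with the substitution G1T, counted from 1 at the 5′ end of the motif. Ifi207, with the smallest LPS change described below, held the element, and Ifi209, which moved like most members, held only the match with that substitution. Whether the element bears on the size of the response was not tested. The windows of 50 bases around these matches read as follows on the strand of each gene, with the match in capitals.
Ifi203: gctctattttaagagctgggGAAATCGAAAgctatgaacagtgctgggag
Ifi205: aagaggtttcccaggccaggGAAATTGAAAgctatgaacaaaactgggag
Ifi207: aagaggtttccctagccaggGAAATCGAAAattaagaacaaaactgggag
Ifi211: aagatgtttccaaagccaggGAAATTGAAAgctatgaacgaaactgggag
Ifi213: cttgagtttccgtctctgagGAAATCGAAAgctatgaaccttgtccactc
Ifi209: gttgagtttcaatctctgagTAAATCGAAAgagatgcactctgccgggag

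In genome order the windows are chr1:173599316-173599365 for Ifi213, chr1:173630760-173630809 for Ifi209, chr1:173741821-173741870 for Ifi207, chr1:173913054-173913103 for Ifi211, chr1:173942498-173942547 for Ifi203 and chr1:174031860-174031909 for Ifi205. Ifi203, which has a pair of promoters in the table, held the element in the one shown. Ifi205 and Ifi211 were identical at 92% of these 50 bases, Ifi205 and Ifi207 at 88%, and Ifi205 and Ifi213 at 52%. The run GAAATCGAAA, the commonest form of the element in the locus and picked for that reason, stood in 3 members and in 4 other locus genes, Ifi206, Ifi208, Ifi214 and Mndal, and in 0.0487% of all promoters. Neither the gamma-activated site TTCNNNGAA, the kappa B motif (GGGA and TTTCC, 1 base apart) nor the E-box CACGTG, the class of site that Bhlhe40 binds, was found in a member promoter, and they stood in 8.30%, 0.411% and 7.15% of all promoters. The AP-1 motif TGANTCA was in those of Ifi209 and Ifi203, against 7.81% of all promoters. A match is a description of the letters, not evidence of binding.

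The whole promoters of Ifi205 and Ifi207 are printed because these genes stood at opposite ends of the response to LPS described next, apart from Ifi213. Ifi205, at chr1:174031706-174032005 on the minus strand, holds the element in capitals on its own strand and a second match, 23 bases after the start, on the opposite strand. Ifi207 is at chr1:173741760-173742059 on the minus strand.
Ifi205: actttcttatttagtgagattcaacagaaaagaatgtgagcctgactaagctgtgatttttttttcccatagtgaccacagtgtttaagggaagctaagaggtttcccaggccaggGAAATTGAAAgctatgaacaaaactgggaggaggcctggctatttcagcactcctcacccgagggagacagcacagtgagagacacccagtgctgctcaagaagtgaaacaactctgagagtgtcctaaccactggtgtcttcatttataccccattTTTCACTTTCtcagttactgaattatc
Ifi207: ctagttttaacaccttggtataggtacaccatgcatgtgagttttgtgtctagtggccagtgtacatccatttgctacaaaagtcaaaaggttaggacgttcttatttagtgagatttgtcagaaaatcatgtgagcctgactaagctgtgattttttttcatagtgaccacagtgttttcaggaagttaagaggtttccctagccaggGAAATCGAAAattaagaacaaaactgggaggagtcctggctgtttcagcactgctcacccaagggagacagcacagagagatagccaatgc

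LPS was set against control within each label, to ask how the family responds. All 7 members rose with LPS under both labels, by 3.31 to 4062 times the control mean. In Lyz2Cre-BHLHE40-Fl libraries 24.9% of the 20419 genes tested were called higher and 25.6% lower, and in Lyz2Cre libraries 25% and 23.9%, a call being a limma adjusted p below 0.05. With equal library totals these splits were 2619 higher and 9556 lower in Lyz2Cre-BHLHE40-Fl, and 2395 higher and 9498 lower in Lyz2Cre, and all 7 members were still called higher. The median change of the 7 was 5.85 on the log2(value + 1) scale in Lyz2Cre-BHLHE40-Fl, where the median gene changed by -0.05, and 3.96 in Lyz2Cre, where the median gene changed by 0.

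**Figure D1:**
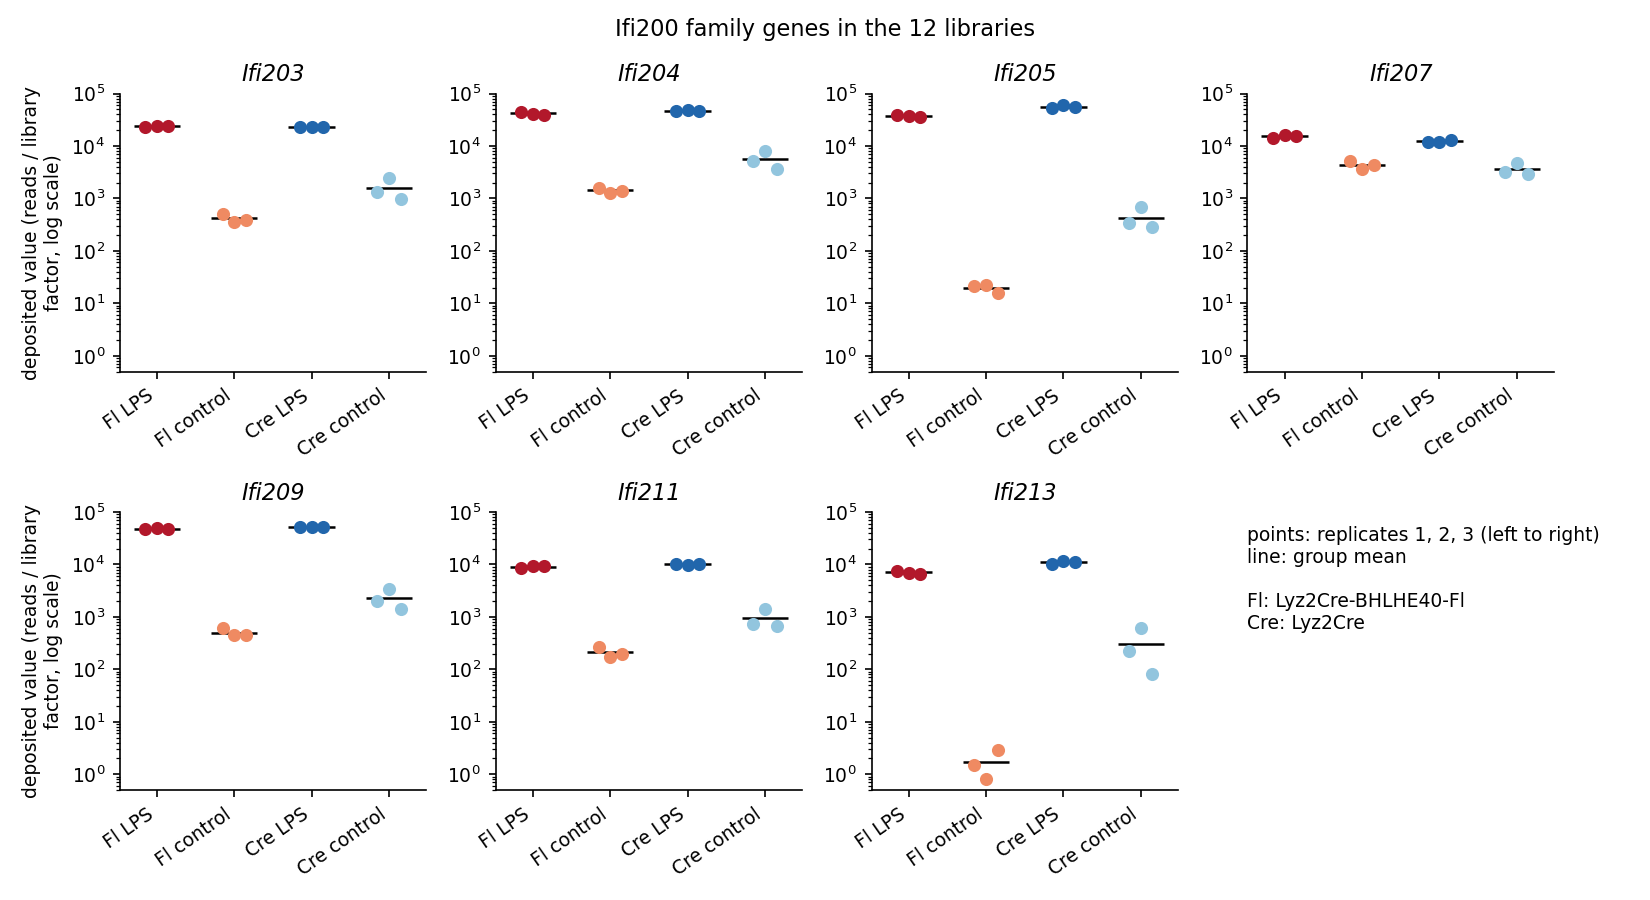
Deposited value (reads divided by a library factor, log axis) of each of the 7 genes in the 12 libraries. Points are replicates 1 to 3, lines are group means, Fl stands for Lyz2Cre-BHLHE40-Fl and Cre for Lyz2Cre. Ifi213 lies between 0.8 and 2.9 in the Lyz2Cre-BHLHE40-Fl controls, whereas Ifi207 is at 2968.8 or more in all libraries.

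Ifi204, the member most often set beside human IFI16, a DNA sensor, had 45364.2, 40361.3 and 38964.7 in Lyz2Cre-BHLHE40-Fl libraries with LPS, against 1603, 1246.6 and 1399.3 in Lyz2Cre-BHLHE40-Fl controls. It had 45958.7, 48730.3 and 45783.2 in Lyz2Cre libraries with LPS, against 5154.7, 8098.6 and 3684 in Lyz2Cre controls. The LPS libraries stood far above the controls under both labels, with no overlap, and the LPS groups were much closer to each other than the control groups. The LPS change was 4.88 ± 0.18 (SE, log2, limma adjusted p = 1.13e-13) in Lyz2Cre-BHLHE40-Fl and 3.13 ± 0.18 (limma adjusted p = 7.82e-11) in Lyz2Cre.

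Ifi205, which has been reported in mouse macrophages to act on the expression of ASC, had 39085.4, 37846.7 and 34932.4 in Lyz2Cre-BHLHE40-Fl libraries with LPS, against 21.8, 22.1 and 15.9 in Lyz2Cre-BHLHE40-Fl controls. In Lyz2Cre libraries it had 53096.7, 59380.1 and 55122.8 with LPS, against 338, 675.2 and 280.6 in controls. The 4 groups were separate, and the Lyz2Cre-BHLHE40-Fl controls stood lowest. The ratio of means was 1871 in Lyz2Cre-BHLHE40-Fl and 130 in Lyz2Cre, and the log2 changes were 10.81 ± 0.21 (limma adjusted p = 2.11e-17) and 7.12 ± 0.21 (limma adjusted p = 9.24e-15).

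Ifi213 was nearly silent in the Lyz2Cre-BHLHE40-Fl controls, with values of 1.5, 0.8 and 2.9 made of 7 reads in all, against 7499.5, 6927.5 and 6695.9 in Lyz2Cre-BHLHE40-Fl libraries with LPS. It had 10224.2, 11862.2 and 11252.6 in Lyz2Cre libraries with LPS, against 226.3, 604.7 and 82.9 in Lyz2Cre controls. Low control counts make its fold imprecise. The ratio of means was 4062 in Lyz2Cre-BHLHE40-Fl, with a counting interval (95%, exact Poisson) of 1971 to 10105 that covers counting error only, and 36.5 in Lyz2Cre. Without Lyz2Cre-BHLHE40-Fl control replicate 3 the first ratio was 6123, and without Lyz2Cre control replicate 2 the second was 71.9. The log2 change was 11.40 ± 0.44 in Lyz2Cre-BHLHE40-Fl (limma adjusted p = 2.03e-13) and 5.62 ± 0.44 in Lyz2Cre (limma adjusted p = 5.24e-09).

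Ifi207, reported in mouse cells to take part in STING signalling, behaved unlike the other 6. It had 14203.1, 16285.3 and 15519.5 in Lyz2Cre-BHLHE40-Fl libraries with LPS, against 5166.8, 3564.5 and 4298 in Lyz2Cre-BHLHE40-Fl controls. In Lyz2Cre libraries it had 11769.3, 11881.5 and 12890.3 with LPS, against 3241.7, 4829.5 and 2968.8 in controls. Its control level was already high under both labels, and the controls overlapped. The ratios of means were 3.53 in Lyz2Cre-BHLHE40-Fl and 3.31 in Lyz2Cre, or 1.83 ± 0.14 (limma adjusted p = 5.40e-09) and 1.76 ± 0.14 (limma adjusted p = 1.02e-08) on the log2 scale.

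Ifi203 had 23346.9, 24178.8 and 23946.1 in Lyz2Cre-BHLHE40-Fl libraries with LPS, against 511.1, 352.1 and 392 in Lyz2Cre-BHLHE40-Fl controls. It had 23134.3, 23154.8 and 22488 in Lyz2Cre libraries with LPS, against 1313.3, 2448 and 994.9 in Lyz2Cre controls. Its LPS levels nearly met while its controls were well apart, and the ratios of means were 56.9 in Lyz2Cre-BHLHE40-Fl and 14.5 in Lyz2Cre. Ifi209, per exon length the most abundant member with LPS, had 47532.8, 49622.5 and 47860.9 in Lyz2Cre-BHLHE40-Fl libraries with LPS, against 621.6, 445.3 and 444.9 in Lyz2Cre-BHLHE40-Fl controls. In Lyz2Cre libraries it had 51004.1, 52155.2 and 51282.7 with LPS, against 1970, 3427.2 and 1391.9 in controls. The ratios were 95.9 in Lyz2Cre-BHLHE40-Fl and 22.7 in Lyz2Cre, so the same order as for Ifi203.

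Ifi211 had 8445.1, 9446.7 and 9258.1 in Lyz2Cre-BHLHE40-Fl libraries with LPS, against 272.6, 169 and 199.3 in Lyz2Cre-BHLHE40-Fl controls. It had 10049.1, 9860.8 and 10397.1 in Lyz2Cre libraries with LPS, against 719, 1418.5 and 665.8 in Lyz2Cre controls. The ratios of means were 42.4 in Lyz2Cre-BHLHE40-Fl and 10.8 in Lyz2Cre. For Ifi203, Ifi209 and Ifi211 the log2 changes were 5.85 ± 0.21, 6.60 ± 0.21 and 5.43 ± 0.21 in Lyz2Cre-BHLHE40-Fl, and 3.96 ± 0.21, 4.61 ± 0.21 and 3.52 ± 0.21 in Lyz2Cre, all called by limma.

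**Figure D2:**
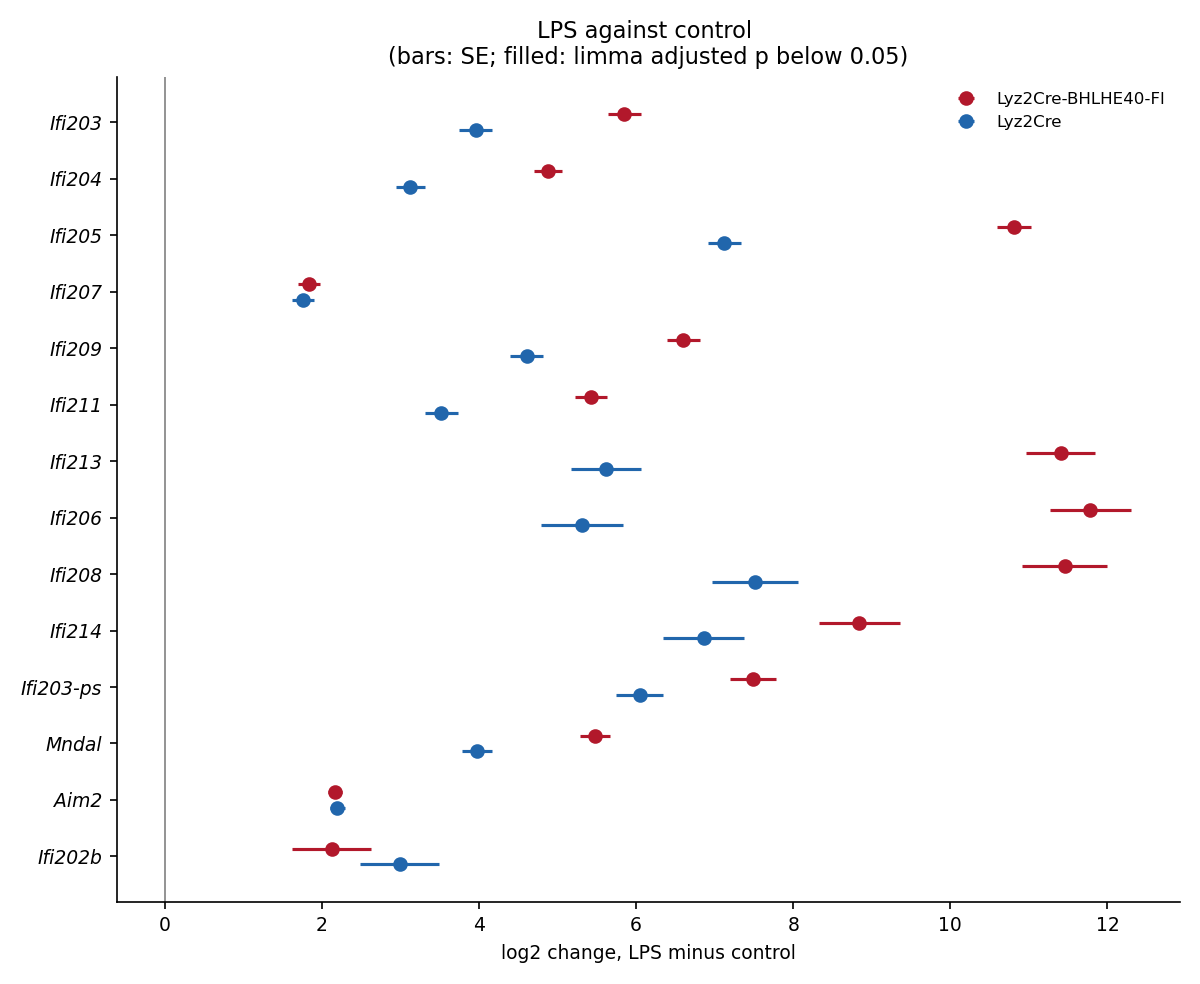
Log2 change of LPS against control for the 7 members and, below them, 7 other genes of the locus, with standard errors from limma, Lyz2Cre-BHLHE40-Fl in red and Lyz2Cre in blue. The markers of Ifi207 and Aim2 lie almost on each other near 2, whereas those of Ifi213 and Ifi205 lie far apart.

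Whether the LPS change itself differed between labels was tested as the interaction of label and LPS. The change was larger in Lyz2Cre-BHLHE40-Fl for 6 of the 7 members, where 9.52% of all genes tested were called higher. The difference in change was 5.79 ± 0.62 for Ifi213 (log2, limma adjusted p = 2.61e-06) and 3.69 ± 0.30 for Ifi205 (limma adjusted p = 9.31e-08). It was between 1.75 and 1.99 for Ifi204, Ifi203, Ifi211 and Ifi209. For Ifi207 it was 0.08 ± 0.21 (limma adjusted p = 0.858), with a 95% interval of -0.36 to 0.51, and it turned to -0.14 without Lyz2Cre control replicate 2 and to -0.06 without Lyz2Cre-BHLHE40-Fl control replicate 2.

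The labels were then compared within each treatment. In controls 6 of the 7 members were lower in Lyz2Cre-BHLHE40-Fl, where 16.6% of all genes tested were called lower and 15% higher (with equal library totals, 2526 lower and 5099 higher), and the median of the 7 was -2.06 on the log2 scale, against 0 for all genes. Ifi213 averaged 1.73 ± 1.07 in Lyz2Cre-BHLHE40-Fl controls, against 305 ± 270 in Lyz2Cre controls (SD, n = 3 each). That is 176-fold lower, with a counting interval of 85.0 to 438, or -6.44 ± 0.44 on the log2 scale (limma adjusted p = 2.30e-09). The fold was 89.2 without Lyz2Cre control replicate 2 and 265 without Lyz2Cre-BHLHE40-Fl control replicate 3, and the log2 difference was between -7.16 and -5.73 with any 1 library left out. Ifi205 was 21.6-fold lower in Lyz2Cre-BHLHE40-Fl controls (-4.27 ± 0.21, limma adjusted p = 2.77e-11). Ifi203, Ifi204, Ifi211 and Ifi209 were 3.79-, 3.99-, 4.37- and 4.49-fold lower, with log2 differences of -1.83, -1.93, -2.06 and -2.08, each called by limma. These comparisons share their control libraries with the LPS comparisons above. Their standard errors use a spread shared by the 4 groups, and the controls spread more than the LPS libraries. The median coefficient of variation of the 7 was 46.3% in Lyz2Cre controls and 19.8% in Lyz2Cre-BHLHE40-Fl controls. With LPS it was 3.53% and 5.87% in the same labels, so the standard errors in controls may be too small. Over the alternatives the 6 stayed called lower, with a highest adjusted p of 0.0018 for Ifi213 and 0.0112 for Ifi203.

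Ifi207 was again the exception. It averaged 4343 ± 802 in Lyz2Cre-BHLHE40-Fl controls, against 3680 ± 1005 in Lyz2Cre controls (SD, n = 3 each), a log2 difference of 0.26 ± 0.14 (limma adjusted p = 0.21) with a 95% interval of -0.05 to 0.56. Without Lyz2Cre control replicate 2 the difference was 0.47 and was called (limma adjusted p = 0.00482).

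With LPS the labels lay close together. In the Lyz2Cre-BHLHE40-Fl libraries 1 of the 7 members was called lower and 0 higher, where 19.8% of all genes tested were called lower and 17.7% higher (with equal library totals, 2238 lower and 6206 higher). At an unadjusted p below 0.05 limma had 1 member higher, Ifi207, and edgeR on recovered reads also called 1 higher. Ifi205 averaged 37288 ± 2132 in Lyz2Cre-BHLHE40-Fl and 55867 ± 3207 in Lyz2Cre (SD, n = 3 each), a log2 difference of -0.58 ± 0.21 (limma adjusted p = 0.0386, 95% interval -1.03 to -0.14). That call was lost without any 1 of the 6 LPS libraries and under 6 other settings, with a highest adjusted p of 0.299, while the sign stayed negative. Ifi213 differed by -0.66 ± 0.44 (limma adjusted p = 0.274, 95% interval -1.59 to 0.28), although its 3 values in Lyz2Cre-BHLHE40-Fl with LPS lay below all 3 in Lyz2Cre with LPS. Its standard error is shared with the wide Lyz2Cre controls, and a fit of the 2 LPS groups alone called it lower (limma adjusted p = 0.0011). Ifi207 differed by 0.33 ± 0.14 (limma adjusted p = 0.0854, 95% interval 0.02 to 0.64), and without Lyz2Cre control replicate 2 it was called higher (limma adjusted p = 0.0174), as it was with 2 groups alone, equal library totals, quantile normalization and edgeR.

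The other 4 members differed by less with LPS. Ifi203 differed by 0.06 (95% interval -0.39 to 0.50), Ifi209 by -0.09 (-0.53 to 0.35), Ifi211 by -0.16 (-0.59 to 0.27) and Ifi204 by -0.17 (-0.56 to 0.21). None of these 4 was called by limma, and Ifi204, Ifi209 and Ifi211 changed sign with equal library totals and with quantile normalization. In each of the 4 the deposited values of the 2 LPS groups did not overlap. How many of all genes were separate in this way was not counted, so no label difference is read from it.

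**Figure D3:**
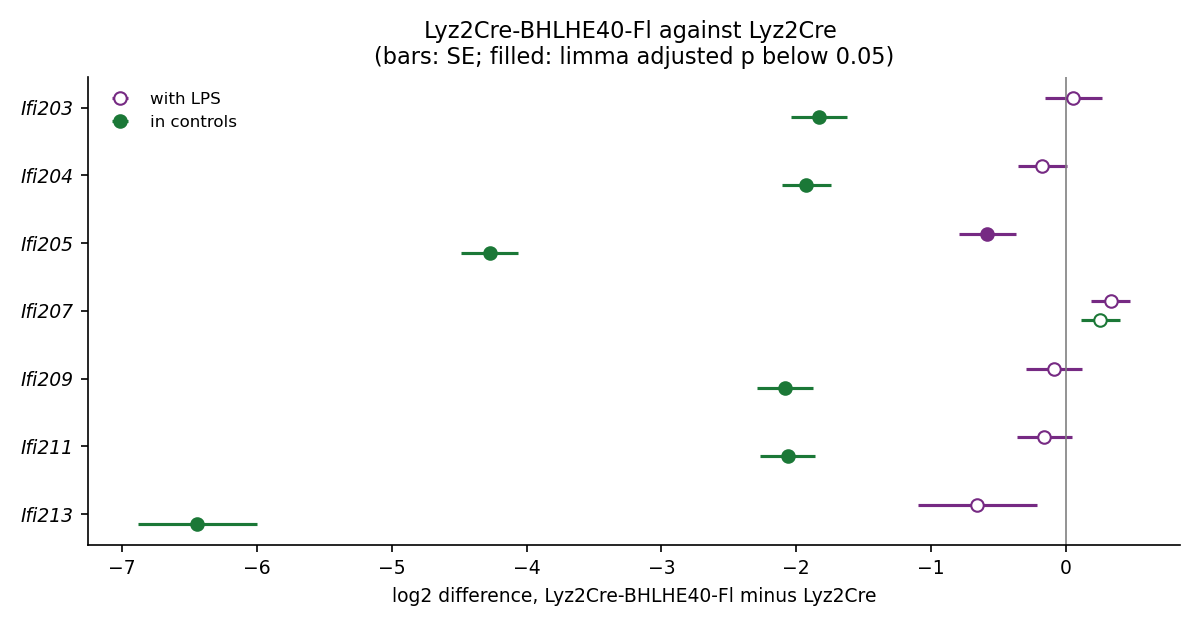
Log2 difference of Lyz2Cre-BHLHE40-Fl against Lyz2Cre for the 7 members, with LPS in purple and in controls in green, with standard errors from limma; filled markers are called. In controls 6 genes lie at or below -1.83, and with LPS all 7 lie between -0.66 and 0.33.

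In the deposited values the order of the 4 groups was the same for Ifi204, Ifi205, Ifi209, Ifi211 and Ifi213. Lyz2Cre with LPS was highest, Lyz2Cre-BHLHE40-Fl with LPS next, then Lyz2Cre control, and Lyz2Cre-BHLHE40-Fl control lowest, with no overlap between neighbours. The share of all genes with groups as separate as these was not counted. The order of the LPS groups also depends on the scaling. With equal library totals and with quantile normalization their difference changed sign for Ifi204, Ifi209 and Ifi211, none of which was called by limma. In Ifi203 the first 2 groups changed places, also without overlap, at means of 23824 in Lyz2Cre-BHLHE40-Fl with LPS, against 22926 in Lyz2Cre with LPS. Ifi207 was highest in Lyz2Cre-BHLHE40-Fl with LPS, followed by Lyz2Cre with LPS, and its 2 control groups overlapped.

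Spread between replicates was widest in the Lyz2Cre controls, where the median coefficient of variation of the 7 was 46.3%, with 88.5% for Ifi213. The Lyz2Cre-BHLHE40-Fl groups had 5.87% with LPS and 19.8% in controls, and Lyz2Cre with LPS had 3.53%. In all 7 members Lyz2Cre control replicate 2 was highest, replicate 1 next and replicate 3 lowest, and replicate 2 exceeded replicate 3 by 1.63 times in Ifi207 and by 7.29 times in Ifi213. Irf7, an interferon-inducible transcription factor, showed the same order with 8053.9, 14704.1 and 2387.6 in Lyz2Cre control replicates 1, 2 and 3, while Aim2 did not, with 1232.5, 1299.4 and 1508.3. Without replicate 2 the 6 lower members in Lyz2Cre-BHLHE40-Fl controls were still called.

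Because Ifi207 kept its level in controls, the make-up of family RNA differed between groups. Divided by exon length in kb, the 7 members summed to 48360 ± 1119 in Lyz2Cre-BHLHE40-Fl with LPS, against 1996 ± 352 in Lyz2Cre-BHLHE40-Fl controls, and to 55300 ± 1399 in Lyz2Cre with LPS and 4207 ± 1652 in Lyz2Cre controls (SD, n = 3 each). Ifi207 made up 9.27% ± 0.69 of that sum (SD, n = 3) in Lyz2Cre-BHLHE40-Fl with LPS, against 63.5% ± 1.05 in Lyz2Cre-BHLHE40-Fl controls. In Lyz2Cre it made up 6.44% ± 0.37 with LPS and 26.4% ± 3.37 in controls. Ifi205 took 18.5% ± 0.67 in Lyz2Cre-BHLHE40-Fl with LPS, against 0.244% ± 0.06 in Lyz2Cre-BHLHE40-Fl controls. Its share was 24.2% ± 0.77 in Lyz2Cre with LPS, against 2.40% ± 0.24 in Lyz2Cre controls. With LPS the largest share under both labels was that of Ifi209, with 28.2% in Lyz2Cre-BHLHE40-Fl and 26.3% in Lyz2Cre. In Lyz2Cre controls the largest was Ifi204, with 37.6%.

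**Figure D4:**
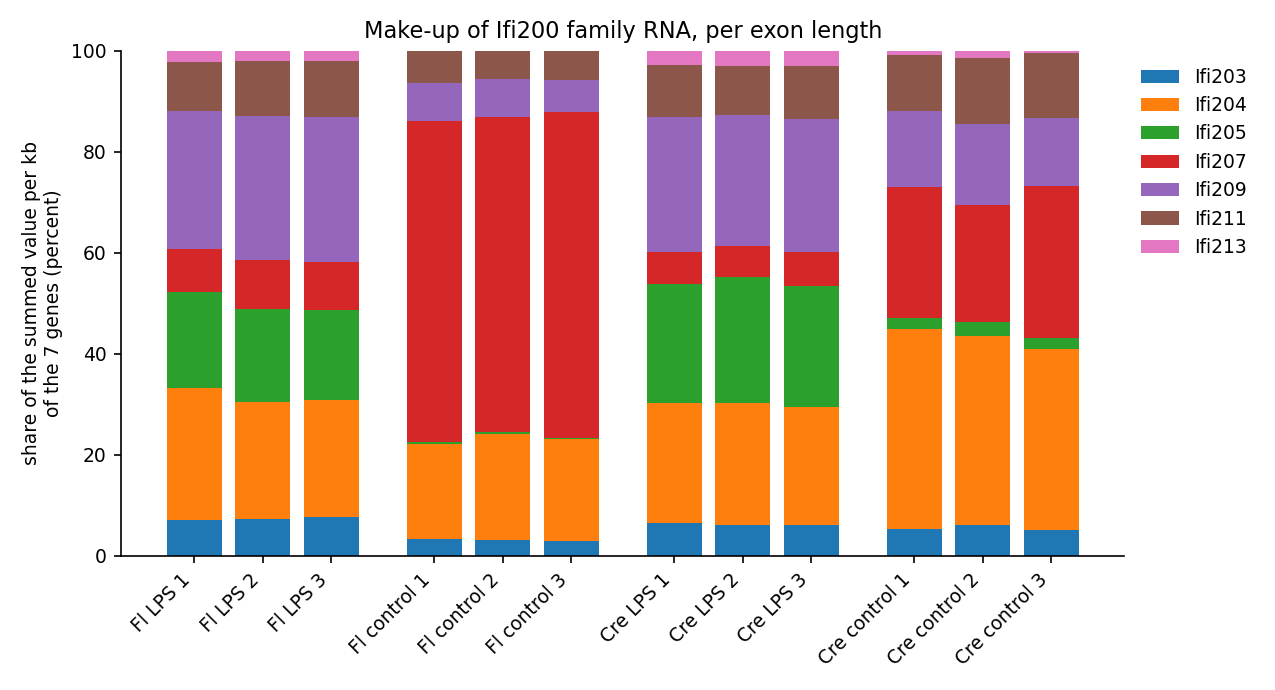
Share of each member in the summed value per kb of exon of the 7 genes, in percent, as stacked bars for each of the 12 libraries; Fl stands for Lyz2Cre-BHLHE40-Fl and Cre for Lyz2Cre. Ifi207 (red) fills 62.4% to 64.5% in the 3 Lyz2Cre-BHLHE40-Fl controls and at most 9.70% in any library with LPS.

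The rest of the locus mostly moved with the members. All 7 other measured genes were called higher with LPS under both labels, with a median log2 change of 7.49 in Lyz2Cre-BHLHE40-Fl and 5.31 in Lyz2Cre. Of all genes tested 24.9% and 25% were called higher with LPS, 16.6% lower in controls and 9.52% higher for the interaction. In controls 5 of the 7 were called lower in Lyz2Cre-BHLHE40-Fl, namely Ifi206 (-6.62), Ifi208 (-4.04), Ifi214 (-1.98), Mndal (-1.69) and Ifi203-ps (-1.64), a pseudogene. Like Ifi213, Ifi206 was near 0 in Lyz2Cre-BHLHE40-Fl controls, with 4 reads in all, and Ifi208 also had 4 reads there. Ifi214 had 2 reads there against 27 in Lyz2Cre controls, with overlapping values, and Ifi203-ps had 16 against 58. With 2 groups alone the control calls of Ifi214 and Ifi203-ps were lost (limma adjusted p = 0.136 and 0.0544). Mndal, named for its likeness to the myeloid nuclear differentiation antigen, had 24669.3, 24606.6 and 21823.5 in Lyz2Cre-BHLHE40-Fl libraries with LPS, against 664.5, 416.1 and 544.9 in Lyz2Cre-BHLHE40-Fl controls. It had 26695.7, 27662.4 and 26586.2 in Lyz2Cre libraries with LPS, against 1563.5, 2619.8 and 1242 in Lyz2Cre controls, which is close to the pattern of Ifi203. For the interaction 4 of the 7 were called higher, Ifi206 (6.48), Ifi208 (3.94), Mndal and Ifi203-ps (1.45), and Ifi214 had 1.98 (limma adjusted p = 0.0706). The call of Ifi203-ps was lost with a pseudocount of 5 and without any 1 of 3 libraries, Lyz2Cre LPS replicate 1, Lyz2Cre-BHLHE40-Fl control replicate 3 and Lyz2Cre-BHLHE40-Fl LPS replicate 2. Ifi214 was called with equal library totals, quantile normalization, edgeR (3.64), DESeq2 (3.87) and without Lyz2Cre control replicate 3 (2.82). Ifi208 ranged from 2.32 with a pseudocount of 5 to 6.21 with one of 0.1.

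Aim2, the DNA sensor at one end of the locus, resembled Ifi207 in the size of its LPS change, but its label differences had the opposite sign. It had 5397.5, 5116.7 and 4868.9 in Lyz2Cre-BHLHE40-Fl libraries with LPS, against 1318.8, 1012.9 and 1114.5 in Lyz2Cre-BHLHE40-Fl controls. It had 5969.4, 6369.7 and 6123.2 in Lyz2Cre libraries with LPS, against 1232.5, 1299.4 and 1508.3 in Lyz2Cre controls. The LPS change was 2.16 ± 0.09 in Lyz2Cre-BHLHE40-Fl and 2.20 ± 0.09 in Lyz2Cre. Between labels Aim2 differed by -0.23 in controls (limma adjusted p = 0.0643), and it was called lower with LPS (-0.26, limma adjusted p = 0.031), where equal library totals gave 0.02. That call was also lost with no filter, with quantile normalization and without any 1 of the LPS libraries but Lyz2Cre-BHLHE40-Fl LPS replicate 1. The control difference was called lower with TMM (limma adjusted p = 0.0239), with edgeR, and without replicate 1 of either control group. No match to the response element was found in its promoter, nor in that of Ifi202b, an antagonist of Aim2 without a pyrin domain. Ifi202b was at 0 in all 6 controls and had 9 reads in Lyz2Cre-BHLHE40-Fl libraries with LPS and 15 in Lyz2Cre libraries with LPS.

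**Figure D5:**
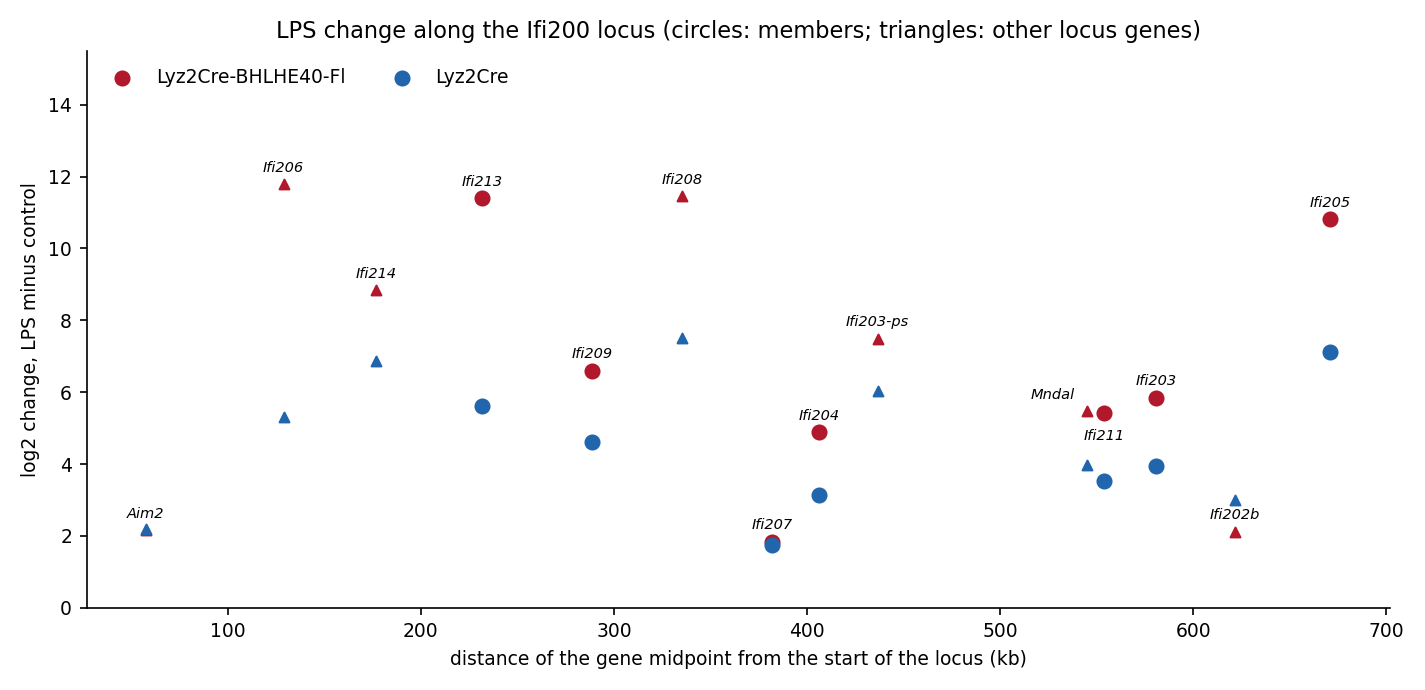
Log2 change of LPS against control by the distance of each gene's midpoint from the start of the locus in kb, Lyz2Cre-BHLHE40-Fl in red and Lyz2Cre in blue, with members as circles and other genes as triangles. Ifi207 and Ifi204 are neighbours, with changes of 1.83 and 4.88 in Lyz2Cre-BHLHE40-Fl.

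In the pathway that DNA sensors feed, the cytosolic DNA sensing and STING list, 8 of 15 tested genes were called higher and 4 lower with LPS, under both labels. Against the shares over all genes given above, 24.9% higher and 25.6% lower in Lyz2Cre-BHLHE40-Fl and 25% and 23.9% in Lyz2Cre, the number lower was near the background. The sensor Zbp1 rose by 7.03 in Lyz2Cre-BHLHE40-Fl and 3.47 in Lyz2Cre on the log2 scale, the nucleotide hydrolase Samhd1 by 3.64 and 3.47, and Mb21d1, which encodes cGAS, by 2.78 and 1.71. In controls, where 15% of all genes were called higher and 16.6% lower, 4 of the 15 were called higher in Lyz2Cre-BHLHE40-Fl and 5 lower, among them Zbp1 (-3.87), Samhd1 (-0.71) and Mb21d1 (-0.43). With LPS 7 were called higher in Lyz2Cre-BHLHE40-Fl and 3 lower, against 17.7% and 19.8% of all genes, and Mb21d1 was higher by 0.64 (limma adjusted p = 0.000244). The median of this list was near 0 in controls, at 0.02, where that of the Ifi200 members was -2.06.

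Of 12 inflammasome genes, Aim2 included, 9 were called higher and 2 lower with LPS in Lyz2Cre-BHLHE40-Fl, and 8 higher and 1 lower in Lyz2Cre, against the same shares of 24.9% and 25.6%, and 25% and 23.9%, of all genes. Il1b, which encodes the precursor that caspase-1 cleaves, had 90526, 81874.2 and 80179.7 in Lyz2Cre-BHLHE40-Fl libraries with LPS, against 26142.6, 30749.4 and 29657.9 in Lyz2Cre libraries with LPS. It had 5.8, 0.8 and 0.7 in Lyz2Cre-BHLHE40-Fl controls, against 185.5, 161.3 and 496.6 in Lyz2Cre controls. Its label difference therefore changed sign between treatments, at 1.55 with LPS (limma adjusted p = 0.00634) and -6.49 in controls (limma adjusted p = 8.29e-10). The sensors Nlrp3 and Mefv were lower in Lyz2Cre-BHLHE40-Fl controls, by -3.25 and -3.60. In all, 9 of the 12 were called lower in Lyz2Cre-BHLHE40-Fl in each treatment, with 0 called higher in controls and 1 with LPS, against 16.6% of all genes lower in controls and 19.8% with LPS.

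Of 14 genes of type I interferon signalling, all were called higher with LPS under both labels, and 10 were called lower in Lyz2Cre-BHLHE40-Fl controls and 0 higher, where 24.9% and 25% of all genes were higher with LPS and 16.6% lower in controls. Irf7 had 52447, 49999.7 and 52976.5 in Lyz2Cre-BHLHE40-Fl libraries with LPS, against 210.8, 206.8 and 207.3 in Lyz2Cre-BHLHE40-Fl controls. It had 46878.6, 55613.2 and 55111.9 in Lyz2Cre libraries with LPS, against 8053.9, 14704.1 and 2387.6 in Lyz2Cre controls. The LPS groups overlapped, and the Lyz2Cre-BHLHE40-Fl controls were lowest and closely spaced. In controls the log2 differences were -4.97 for Irf7 and -3.70 for Usp18, a negative regulator of the receptor, and the interactions were 4.95 and 3.25, all called by limma.

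Ifnb1, which encodes interferon beta, did not follow the members with LPS. It had 112.4, 92 and 80.1 in Lyz2Cre-BHLHE40-Fl libraries with LPS, against 412.7, 895.2 and 769.9 in Lyz2Cre libraries with LPS, a log2 difference of -2.79 ± 0.49 (limma adjusted p = 0.000181). In controls it was at 0 in 5 of 6 libraries, with 3.2 in Lyz2Cre control replicate 2. Among the Lyz2Cre controls that library was also the highest for the 7 members, and a link between the 2 was not tested. Over the alternatives the Ifnb1 difference with LPS lay between -3.13 and -2.51, with a highest adjusted p of 0.0492. The log2 differences of the members with LPS ran from -0.66 to 0.33. Whether Ifnb1 bears on the levels of the members with LPS was not tested.

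Among 20 antiviral interferon-stimulated genes, all were called higher with LPS under both labels, where 24.9% and 25% of all genes were. In controls all 20 were called lower in Lyz2Cre-BHLHE40-Fl, with a median of -2.74. Of 12 genes of the interferon gamma type, all 12 were called lower in Lyz2Cre-BHLHE40-Fl controls, with a median of -2.45, where 16.6% of all genes were. With LPS 1 of the 20 and 4 of the 12 were called lower in Lyz2Cre-BHLHE40-Fl, against 19.8% of all genes, with medians of -0.33 and -0.13. Over the 12 libraries the genes outside the locus most like the mean profile of the members were Trim30a (Pearson r = 0.9993 with log2 values), Slfn5 (0.9991), Oas1b (0.9990), Trim30d (0.9990) and Eif2ak2 (0.9990), which encodes the RNA-dependent kinase PKR. Trim30a averaged 47085 ± 2537 in Lyz2Cre-BHLHE40-Fl with LPS, against 1812 ± 254 in Lyz2Cre-BHLHE40-Fl controls. Its means were 48934 ± 925 in Lyz2Cre with LPS, against 5255 ± 2193 in Lyz2Cre controls (SD, n = 3 each). Within the family the correlation with that profile ran from 0.921 for Ifi207 to 0.9998 for Ifi203. These correlations describe 12 libraries that fall into the same 4 groups and share their library factors.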

How the data were processed

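RNA from 12 libraries of mouse peritoneal macrophages was grouped by the genotype and treatment labels. Per the labels' protocols, total RNA was isolated with a column kit and sequenced on Illumina libraries. STAR, Cufflinks, Cuffdiff and the build mm10 are named, with no roles, in the submitters' processing notes. Strand handling: not given in the sources used here.

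Values as deposited are a signal, whole reads divided by 1 factor per library and rounded, as judged from the values. In each library 99.99% to 100% of the values lay within 0.06, in the unit of the value, of a whole number of reads so divided. Total reads per library were recovered from the values. Genes reaching 1 in 3 or more libraries (20419) entered limma 3.58.1 (R 4.3.3) with an intensity trend on log2(value + 1), a mean per group and a spread shared by the 4 groups. The pseudocount of 1 understates changes of low genes. Adjusted p-values are Benjamini-Hochberg values over all 20419 genes, called below 0.05. The test was tried on simulated reads with the same dispersion in all groups and with changes only in genes well above 0. That setting does not cover the unequal spread of the members between groups, nor changes in genes near 0. Folds are ratios of group means.

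Alternatives were pseudocounts of 0.1 and 5, other filters, equal library totals, TMM, quantile normalization, 2 groups alone, a replicate block, edgeR 4.0.16 and DESeq2 1.42.0 on recovered reads, and leaving out each library. Libraries within a group did not agree within sampling noise (chi-square over degrees of freedom 7.92 to 79.0 in 12 pairs), so none was counted as a repeat of another.

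All members were named. Of other lists up to 4 genes with the largest changes were eligible, and the 5 genes most alike in profile, leaving out gene models and clone names. The members and lists were chosen with earlier results of these data known. Coordinates are from GENCODE M21, and promoters from RefSeq GRCm38.p6.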

Additional observations from a re-analysis of the deposited data

Results flagged for a closer look

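The LPS change differed between the labels for 6 of the 7 members by a test of the difference itself, the interaction of label and LPS in limma. The change in Lyz2Cre-BHLHE40-Fl exceeded that in Lyz2Cre by 1.89 for Ifi203, 1.75 for Ifi204, 3.69 for Ifi205, 1.99 for Ifi209, 1.90 for Ifi211 and 5.79 for Ifi213 on the log2 scale. In each of the 6 the Lyz2Cre-BHLHE40-Fl libraries were lowest in controls, by 3.79- to 176-fold on means (89.2-fold for the last, Ifi213, without Lyz2Cre control replicate 2), and the LPS levels differed by 1.04- to 1.58-fold. Markers of macrophages and of mesothelium differed between the same labels in both treatments, and their part in these differences was not tested.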

How the results depend on the processing

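For the 7 members the LPS changes kept direction and call under all 161 combinations of member and alternative in each label. The 6 lower members in controls and the 6 interactions kept theirs as well. Between labels with LPS, the number of members called higher was 1 with equal library totals, quantile normalization, 2 groups alone and edgeR, and 0 to 1 with a library left out. The number called lower was 0 with a pseudocount of 0.1, no filter, equal library totals, TMM, quantile normalization and DESeq2, 2 (Ifi205 and Ifi213) with 2 groups alone, and 0 to 1 with a library left out. In controls 1 member was called higher with equal library totals and quantile normalization, and 0 to 1 with a library left out. In each case above the member called higher was Ifi207. Equal library totals put the median gene at 0.22 between labels with LPS, against -0.02 in the main fit. For LPS in Lyz2Cre-BHLHE40-Fl and Lyz2Cre they put it at -0.56 and -0.58, against -0.05 and 0. Between labels with LPS, equal library totals gave 0.11 for Ifi204, 0.20 for Ifi209, 0.13 for Ifi211, 0.022 for Aim2 and 0.14 for Bhlhe40. Relative to the median of 0.22 the first 3 were at -0.11, -0.03 and -0.10. Quantile normalization gave 0.19 for Ifi204, 0.19 for Ifi209, 0.14 for Ifi211 and 0.0035 for Bhlhe40. The interaction of Ifi207 ranged from -0.14 to 0.21 with a library left out. In controls the calls of Ifi203-ps, Ifi214 and Mb21d1 were lost with 2 groups alone, and that of Mb21d1 also with equal library totals. The cause of these changes was not tested. Same-numbered libraries did not deviate together (r from -0.066 to 0.028 over 18 pairs), and a replicate block changed no call of a member, with 6 called lower in controls. Over all genes, edgeR called 4714 higher and 5417 lower for LPS in Lyz2Cre-BHLHE40-Fl, against 5086 and 5234 by limma. Counts of 7 reads limit Ifi213 in Lyz2Cre-BHLHE40-Fl controls.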
